A study of Homo sapiens with 6 samples.

Results

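The integrin and focal adhesion genes described here are 36 genes named by symbol: 14 integrin alpha subunits, 8 integrin beta subunits and 14 cytoplasmic proteins of the adhesion plaque. They were chosen by name, and all 36 had a row among the 50550 rows of the gene count table. RNA was sequenced from U2OS, a long-established line grown from a human osteosarcoma. The 3 libraries titled Lv_LINC00673, whose genotype label is LINC00673, were compared with the 3 titled Lv_NC. The series describes LINC00673 knockdown, LINC00673 being a long noncoding RNA, set against wild-type U2OS. The labels give no time, dose, knockdown reagent or meaning for Lv and NC, and the 6 libraries share a single cell line. Nor do they say whether the 3 libraries of each group had their own cultures, so the p-values reflect only library-to-library spread, part of which may be technical.

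Integrins are receptors built from an alpha and a beta subunit that bind extracellular matrix proteins outside the cell. Inside, the beta tail binds talin and kindlin, and a plaque of linkers, scaffolds and kinases joins it to actin and to signalling. Bone-forming cells and osteosarcoma cells use these receptors to hold collagen, fibronectin, laminin and vitronectin.

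Library totals ran from 61815841 to 87227980 counts. LINC00673, the targeted RNA, stood at 6.55, 6.23 and 6.38 CPM (counts scaled to a common library size) in Lv_LINC00673 libraries 1, 2 and 3 and at 9.16, 9.27 and 7.08 CPM in Lv_NC libraries 1, 2 and 3. The groups did not overlap, but the log2 fold change of -0.41 did not pass the test (adjusted p = 0.0924). The markers held for the osteosarcoma line summed to 3157.9 to 3531.8 CPM against 2745.5 to 2964.5 CPM. Of those 6 genes, 5 averaged at least 1 CPM, while COL1A2 had 0 CPM in 5 libraries and 0.18 CPM in the other. Most of the sum was VIM, at a mean of 2605 CPM against 2055 CPM. RUNX2, ALPL and VIM were higher (log2 fold changes 1.25, 0.50 and 0.34) and SPARC lower (-0.36), each at an adjusted p under 0.05. COL1A1 did not pass the test (adjusted p = 0.393). Leukocyte markers summed to 6.92 to 9.32 CPM against 9.44 to 11.3 CPM, with CORO1A the only marker of 6 to average at least 1 CPM. Libraries also differed in the level of low-GC genes relative to high-GC genes. The median log2 deviation of the lowest GC decile of genes minus that of the highest was -0.02, 0.73 and 0.56 in Lv_LINC00673 libraries 1, 2 and 3 and -0.11, -0.82 and -0.33 in the Lv_NC libraries in the same order. On this measure every Lv_LINC00673 library was above every Lv_NC library, and whether it came from sequencing or from expression was not tested. A fit with an offset for GC content and transcript length is therefore given beside the results and is called the offset fit. It would also remove a group difference in expression that follows GC content or length.

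Of the 33 integrin and focal adhesion genes with enough counts to test, 17 (51.5%) were past the threshold (Benjamini-Hochberg adjusted p of 0.05, quasi-likelihood test of edgeR), 11 of them higher in Lv_LINC00673 and 6 lower. The same test called 26.8% of all 21933 genes, 14.3% higher and 12.5% lower. At 1 CPM or more in 3 libraries, 17 of 31 members were called against 36.4% of all genes so filtered (20.5% higher and 15.9% lower). CPM did not overlap between the groups in 21 of 33 members and in 45.1% of all genes, and 5 members (ITGA1, ITGA2, ITGA4, ITGAV and ITGAM) were called with at least a 2-fold difference, as were 8.38% of all genes. The median log2 fold change was 0.17 over the members tested and 0.05 over all genes. The genes that rose were 6 alpha subunits (ITGA1, ITGA2, ITGA4, ITGA6, ITGAV and ITGAM), the beta subunits ITGB1 and ITGB8, and TLN2, VCL and PTK2. Those that fell were ITGA5, ITGB2, ILK, ZYX, ACTN1 and ACTN4. In the offset fit, which called 31.8% of 16897 genes, 14 members were called, 8 higher and 6 lower, and 11 of these calls were shared with the fit without it. Scaling to library totals gave 15 calls, 12 higher and 3 lower (18.5% and 5.59% of all genes), and moved the median of all genes from 0.05 to 0.22. Leaving out Lv_LINC00673 library 2, Lv_LINC00673 library 3 or Lv_NC library 3 left 7 members called each time, while 12%, 12.5% and 12.7% of all genes were called. Leaving out Lv_NC library 2 left 11 members and 15.8% of all genes, so the counts fell over the whole table and not for these genes alone. On deposited FPKM, limma with pseudocounts of 1 and 0.1 called 11 members each time and 21.6% and 22% of all genes, without the calls of ITGA4, ITGB2, ITGB8, ZYX, ILK and ACTN4.

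**Figure D1:**
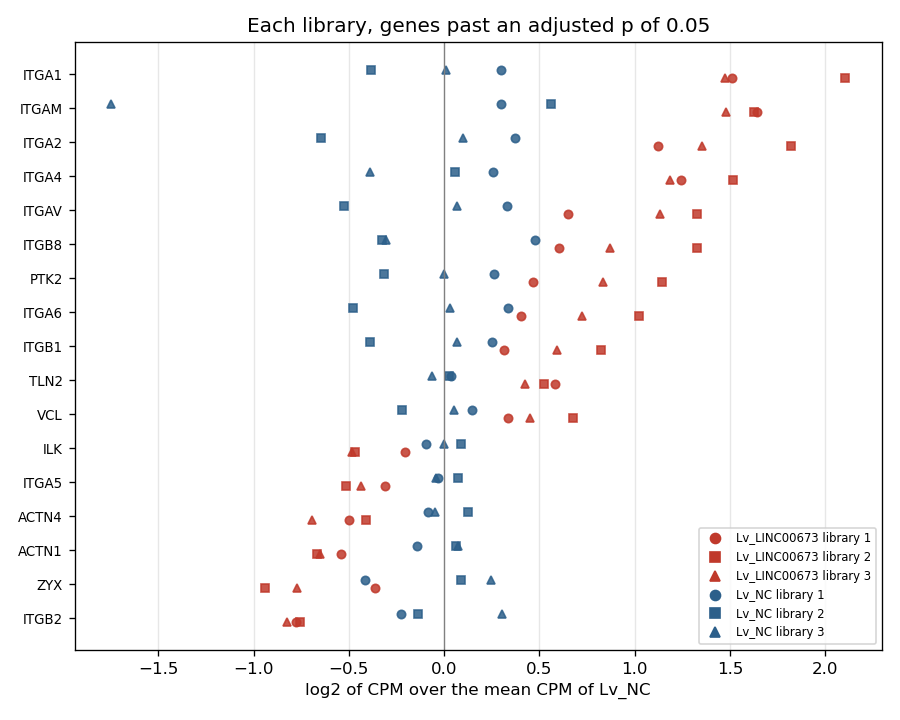
Each of the 17 genes past the threshold is a row, and each point is 1 library's CPM over the mean of Lv_NC on a log2 axis (red, Lv_LINC00673; blue, Lv_NC; the marker shape gives the library number). The groups are apart in every row except ZYX, where Lv_LINC00673 library 1 lies above Lv_NC library 1. Second, numbered rows of ZYX and ACTN4 are not drawn.

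The levels themselves were compared as FPKM, fragments scaled to transcript length and library size, since this scale allows for length. ITGA3, the laminin-binding alpha subunit, had the highest mean of any single row over the 6 libraries at 260 FPKM. Next in order were ACTN1 at 226 FPKM, ITGB5 at 199 FPKM, PXN at 164 FPKM, ACTN4 at 133 FPKM and ITGA5 at 112 FPKM. ZYX at 98.3 FPKM, TLN1 at 90.8 FPKM and ILK at 83.1 FPKM followed, and ITGB1, the common beta subunit, came after ILK at 47.2 FPKM. The same 10 genes led when CPM was divided by the length of the longest transcript. ACTN4, ZYX and BCAR1 each have a second, numbered row that these levels leave out, at 179, 73.1 and 18.9 FPKM. Both ACTN4 rows together came to 313 FPKM, above ITGA3. Of the 36 single rows, 9 averaged at least 50 FPKM, 16 lay between 1 and 50 FPKM and 11 under 1 FPKM. The integrin subunits with high RNA levels were thus ITGA3, ITGB5, ITGA5 and ITGB1. ITGAV, the alpha partner of ITGB5, was at 4.37 FPKM, next to the collagen receptor subunit ITGA2 at 4.9 FPKM. The collagen receptor subunit ITGA1 (0.229 FPKM) and the leukocyte subunits ITGAM (0.157 FPKM) and ITGB2 (0.989 FPKM) were low. ITGA8, ITGB6 and ITGB7 reached at most 8 counts in any library and were not tested.

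**Figure D2:**
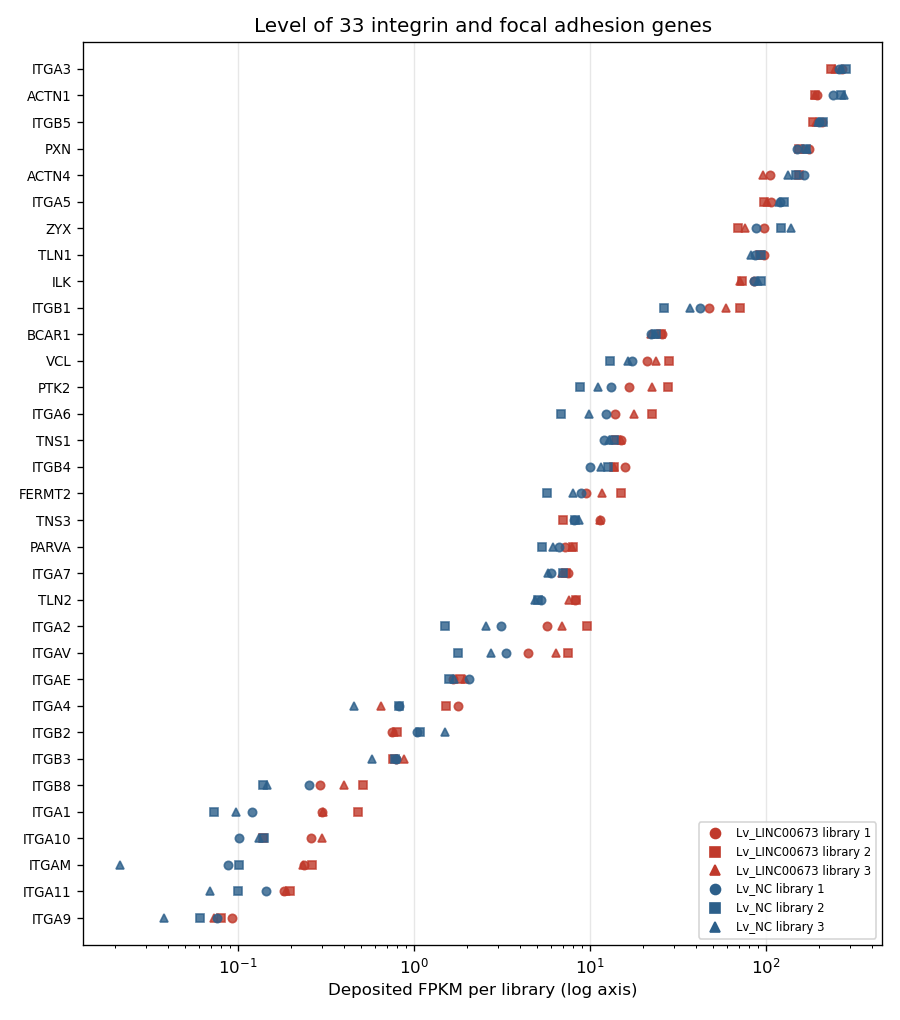
FPKM of the integrin and focal adhesion genes in each library on a log axis, ordered by mean level (red, Lv_LINC00673; blue, Lv_NC). Second, numbered rows of ACTN4, ZYX and BCAR1 are not drawn. Of the rows drawn, ITGA3 is highest with a mean of 260 FPKM, and 9 average 50 FPKM or more.

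Among the collagen-binding alpha subunits, ITGA1 and ITGA2 rose the most. ITGA1, which pairs with ITGB1 to bind collagens of basement membrane, stood at 3.27, 4.93 and 3.18 CPM in the Lv_LINC00673 libraries and 1.41, 0.876 and 1.15 CPM in the Lv_NC libraries. Every Lv_LINC00673 library was above every Lv_NC library, and ITGA1 was 3.31-fold higher (95% interval 2.16 to 5.07, log2 fold change 1.73, SE 0.27, adjusted p = 0.00534). ITGA2, which with ITGB1 binds fibrillar collagen, stood at 44.9, 72.6 and 52.6 CPM against 26.6, 13.1 and 22.1 CPM. The groups were again apart, and ITGA2 was 2.75-fold higher (95% interval 1.81 to 4.19, log2 fold change 1.46, SE 0.27, adjusted p = 0.00776). Both differences were smaller but still called in the offset fit, at 0.89 for ITGA1 (adjusted p = 0.0086) and 0.76 for ITGA2 (adjusted p = 0.00391). Both stayed past the threshold whichever library was left out. ITGA10 averaged 1.21 ± 0.442 CPM (SD, n = 3) against 0.721 ± 0.126, and ITGA11 averaged 1.89 ± 0.0346 against 1.17 ± 0.412. Neither of these other collagen receptor subunits passed the test (log2 fold changes 0.74 and 0.68, adjusted p = 0.153 and 0.112).

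ITGA1 and ITGA2 are neighbours on chromosome 5, at chr5:52787916-52959209 and chr5:52989352-53094779 on GRCh38 (hg38), with 30142 bases and no other annotated gene wholly between them. PELO, a ribosome rescue factor gene named here after its value was seen, lies inside ITGA1 and shares its annotated start, and it fell (log2 fold change -0.56, adjusted p = 0.00802). The labels do not say which strand was counted, so reads where the 2 genes overlap cannot be told apart. The 250 bases before the RefSeq start of each gene (GRCh38.p14) are shown because ITGA1 had the largest rise of the members and ITGA2 is its neighbour; capitals mark GGGCGG, the GC box read by SP1, or its reverse complement. ITGA1 covers chr5:52787666-52787915 and ITGA2 covers chr5:52989102-52989351, both on the plus strand, and the ITGA2 window was added after its value was seen.
ITGA1: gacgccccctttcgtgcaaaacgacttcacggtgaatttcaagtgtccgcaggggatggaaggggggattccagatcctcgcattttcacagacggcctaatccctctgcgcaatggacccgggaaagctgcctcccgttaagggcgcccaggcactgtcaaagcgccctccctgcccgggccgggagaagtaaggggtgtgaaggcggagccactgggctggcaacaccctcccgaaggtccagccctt
ITGA2: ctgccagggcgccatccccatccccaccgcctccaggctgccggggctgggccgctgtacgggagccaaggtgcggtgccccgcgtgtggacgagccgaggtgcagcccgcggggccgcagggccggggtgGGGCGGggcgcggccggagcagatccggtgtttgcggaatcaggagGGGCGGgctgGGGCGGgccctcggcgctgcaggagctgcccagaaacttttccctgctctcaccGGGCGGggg
The ITGA1 window holds no GC box and the ITGA2 window holds 4. Of all 27305 promoter windows of this length, 42.3% hold at least 1, on either strand.

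ITGA6 and ITGAV, receptor subunits for laminin and for vitronectin and fibronectin, also rose. ITGA6 stood at 80.7, 124 and 100.5 CPM against 76.9, 43.8 and 62.2 CPM (log2 fold change 0.74, SE 0.22, adjusted p = 0.0354). ITGAV stood at 31.6, 50.6 and 44.2 CPM against 25.3, 14.0 and 21.1 CPM (log2 fold change 1.06, SE 0.24, adjusted p = 0.0144). In both genes library 1 of Lv_LINC00673 lay close to library 1 of Lv_NC, and the other libraries of the groups stood further apart. In the offset fit ITGAV kept a log2 fold change of 0.34 (adjusted p = 0.0306), and ITGA6 was not called at 0.28 (adjusted p = 0.0964). Without 1 library the adjusted p reached 0.0568 for ITGAV and 0.128 for ITGA6.

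ITGA4, which with ITGB1 binds fibronectin and the vascular cell adhesion molecule, rose from a low level. Its values were 4.46, 5.38 and 4.28 CPM against 2.25, 1.96 and 1.44 CPM, so that the lowest Lv_LINC00673 library was above the highest Lv_NC library. The log2 fold change was 1.32 (SE 0.22, adjusted p = 0.00602) and 1.03 in the offset fit (adjusted p = 0.00517). In the deposited FPKM values of ITGA4 the groups overlapped, at 1.77, 1.52 and 0.646 FPKM against 0.82, 0.82 and 0.454 FPKM, and limma did not call it (adjusted p = 0.18 and 0.192 with pseudocounts of 1 and 0.1). ITGA9, its closest relative among the alpha subunits, averaged 0.636 ± 0.0926 CPM against 0.51 ± 0.167 (SD, n = 3) and did not pass the test (adjusted p = 0.577).

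ITGA5, the classical fibronectin receptor subunit, was the alpha subunit that fell. It stood at 458, 398 and 421 CPM in Lv_LINC00673 and 557, 597 and 553 CPM in Lv_NC, with no overlap (log2 fold change -0.42, SE 0.08, adjusted p = 0.00985). The call held in the offset fit (-0.29, adjusted p = 0.00151) and without any 1 library. ITGA3 stood at 1328, 1094 and 1170 CPM against 1374, 1547 and 1422 CPM. Its groups did not overlap in CPM, though they did in FPKM, and the difference missed the threshold (log2 fold change -0.27, SE 0.09, adjusted p = 0.059) and passed it in the offset fit (-0.19, adjusted p = 0.00681). ITGA3 was also called with RLE factors, DESeq2 and limma-voom and without Lv_LINC00673 library 1, but not with library totals (adjusted p = 0.297). ITGA7, a laminin receptor subunit best known in muscle, averaged 29.3 ± 1.9 CPM against 28.3 ± 3.4 (SD, n = 3), and its 95% interval for the log2 fold change ran from -0.24 to 0.33.

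Of the 6 beta subunits tested, ITGB1 and ITGB8 rose and ITGB2 fell. ITGB1 stood at 179, 255 and 217 CPM against 172, 110 and 151 CPM. The groups were apart, by a narrow margin between the library 1 of each group (log2 fold change 0.59, SE 0.18, adjusted p = 0.0398). In the offset fit ITGB1 was not called (0.14, adjusted p = 0.136). ITGB8, which pairs with ITGAV to release active TGF-beta, stood at 2.75, 4.54 and 3.32 CPM against 2.52, 1.44 and 1.47 CPM. It was called at 0.96 (SE 0.29, adjusted p = 0.0407) but not in the offset fit (0.17, adjusted p = 0.574). Leaving out a library raised the adjusted p of ITGB1 to as much as 0.143 and of ITGB8 to as much as 0.151.

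ITGB5, the abundant vitronectin receptor subunit, stood at 856, 736 and 774 CPM against 907, 981 and 888 CPM and missed the threshold (log2 fold change -0.23, SE 0.09, adjusted p = 0.0772). ITGB4, the long-tailed beta subunit of hemidesmosomes, averaged 80.5 ± 9.35 CPM against 71.3 ± 9.23 (SD, n = 3, adjusted p = 0.339). ITGB3, a partner of ITGAV on bone-resorbing cells and platelets, averaged 4.72 ± 0.379 CPM against 4.68 ± 0.798, with a 95% interval of the log2 fold change from -0.41 to 0.43. None of these 3 subunits was called without the offset or with it.

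The leukocyte integrin subunits were scarce. ITGAM, the myeloid alpha subunit that pairs with ITGB2, stood at 1.15, 1.14 and 1.03 CPM against 0.452, 0.543 and 0.11 CPM. The groups were apart, and the log2 fold change of 1.57 (SE 0.50, adjusted p = 0.0491) lay at the threshold. Lv_NC library 3 held only 8 counts. The call was kept only without Lv_NC library 2, and the other 5 fits without 1 library lost it, with an adjusted p of up to 0.122. ITGB2 went the other way, at 2.24, 2.27 and 2.17 CPM against 3.28, 3.49 and 4.75 CPM (log2 fold change -0.78, SE 0.20, adjusted p = 0.0233). It was not called in the offset fit (-0.54, adjusted p = 0.0674) or with library totals (adjusted p = 0.0592). The summed leukocyte markers were also lower in Lv_LINC00673, but the sum was mostly CORO1A. CORO1A averaged 7.73 CPM against 10.35 CPM, its groups overlapped, and it did not pass the test (adjusted p = 0.103). The part of these markers in the ITGB2 result was not tested. ITGAE, whose beta partner ITGB7 was at the floor of detection, averaged 7.81 ± 0.535 CPM against 8.44 ± 1.09 (SD, n = 3, adjusted p = 0.643). The ITGAM window, chr16:31259725-31259974 on the plus strand, is shown as the second largest rise; it holds 2 GC boxes.
ITGAM: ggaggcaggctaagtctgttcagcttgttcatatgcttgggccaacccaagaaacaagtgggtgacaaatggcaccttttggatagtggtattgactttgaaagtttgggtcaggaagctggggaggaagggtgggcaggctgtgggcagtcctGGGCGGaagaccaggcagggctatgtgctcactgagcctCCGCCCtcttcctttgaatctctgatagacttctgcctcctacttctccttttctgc

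Because the subunits work as pairs, ratios of alpha to beta FPKM were compared for the 9 pairs in which both averaged at least 1 FPKM. The groups did not overlap in 6 of the 9. All of these except ITGAV to ITGB5 share ITGB1 as the denominator, so they are not separate results. In CPM of single genes 45.1% of all genes did not overlap, and no such share was computed for other ratios. With 3 libraries against 3 the smallest exact two-sided permutation p is 0.1, and those 6 pairs had an adjusted p of 0.15, so none can pass 0.05. The ratio of ITGA3 to ITGB1 was 4.37 ± 1.21 (SD, n = 3) in Lv_LINC00673 and 8.04 ± 2.42 in Lv_NC. The ratio of ITGA5 to ITGB1 was 1.78 ± 0.444 against 3.62 ± 1.02. Both ratios were lower in Lv_LINC00673 than in Lv_NC in every library. The ratio of ITGA2 to ITGB1 was higher, at 0.124 ± 0.0107 against 0.0669 ± 0.00893, as was that of ITGAV to ITGB5, at 0.0318 ± 0.0096 against 0.013 ± 0.00408. Summed over the 12 alpha subunits that pair with ITGB1, alpha RNA was 8.65, 5.35 and 6.5 times that of ITGB1 in Lv_LINC00673 and 9.62, 16.2 and 11.02 times in Lv_NC, with ITGA3 giving 61.4 to 66.3% of the sum. The summed alpha level itself ran from 380 to 428 FPKM over the 6 libraries, while ITGB1 ran from 26.3 to 71.1 FPKM. The transcript of ITGB1 has 40% GC and that of ITGA3 60.9%, and within each group the ratio of ITGA3 to ITGB1 ran opposite to the GC measure of the libraries, whose part in the ratios was not tested.

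Of the proteins that bind integrin tails, TLN2 rose. TLN1 and TLN2 encode the talins, which switch integrins to the active state. TLN2 stood at 99.2, 95.5 and 89.0 CPM against 68.1, 67.6 and 63.4 CPM, with a tight spread in both groups (log2 fold change 0.51, SE 0.09, adjusted p = 0.00614; offset fit 0.26, adjusted p = 0.00926). TLN1, the main talin here, averaged 798 ± 44.4 CPM against 831 ± 65.5 (SD, n = 3), and its log2 fold change of -0.06 did not pass the test (adjusted p = 0.658). In the offset fit TLN1 was called lower (-0.18, adjusted p = 0.0251), and with library totals its sign was positive. FERMT2, a kindlin that activates integrins with talin, averaged 38.4 ± 7.44 CPM against 27 ± 5.65 and missed the threshold (log2 fold change 0.51, adjusted p = 0.0795). The tensins TNS1 and TNS3, which mark fibrillar adhesions, had log2 fold changes of 0.03 and 0.11 with intervals from -0.18 to 0.25 and from -0.30 to 0.52.

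PTK2, which encodes focal adhesion kinase, rose. It stood at 75.6, 121 and 97.5 CPM against 65.5, 44.0 and 54.6 CPM (log2 fold change 0.84, SE 0.19, adjusted p = 0.0151; offset fit 0.53, adjusted p = 0.00756). The groups were apart, with both library 1 values nearest to each other, and the adjusted p without 1 library reached 0.0601. The scaffolds it phosphorylates did not pass the test. PXN, paxillin, stood at 691, 581 and 626 CPM against 699, 800 and 795 CPM (log2 fold change -0.27, SE 0.09, adjusted p = 0.0624), and BCAR1, the p130Cas scaffold, averaged 98.6 ± 8.78 CPM against 104 ± 4.82 (SD, n = 3, adjusted p = 0.59). PXN was called lower with DESeq2 and limma-voom, and in edgeR without library 1 of either group. In deposited FPKM the sign of PXN was positive and close to 0 (0.02, limma).

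ILK, the integrin-linked pseudokinase, fell from 165, 187 and 176 CPM in Lv_NC to 153, 127 and 126 CPM in Lv_LINC00673 (log2 fold change -0.38, SE 0.10, adjusted p = 0.0275). The call was lost in the offset fit (-0.04, adjusted p = 0.635) and with library totals. ILK overlaps TAF10 on chromosome 11, which had a log2 fold change of -0.39 (adjusted p = 0.0206). Its partner PARVA, alpha-parvin, averaged 65 ± 1.85 CPM against 57.2 ± 5.66 (SD, n = 3), with a log2 fold change of 0.18 that did not pass the test (adjusted p = 0.208). The direction of PARVA depended on the offset, with which it was called lower (-0.34, adjusted p = 0.00969), while with library totals it was called higher (0.35, adjusted p = 0.0441).

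The genes that tie adhesions to actin moved in both directions. ACTN1 and ACTN4 encode the nonmuscle alpha-actinins, which cross-link actin and bind the beta tail. ACTN1 stood at 780, 714 and 723 CPM against 1028, 1184 and 1196 CPM, with the highest Lv_LINC00673 library well under the lowest Lv_NC library. This was a 1.54-fold lower level (95% interval 1.34 to 1.76, log2 fold change -0.62, SE 0.09, adjusted p = 0.0044), the smallest adjusted p of the 33 members. ACTN4 stood at 534, 568 and 466 CPM against 711, 822 and 731 CPM (log2 fold change -0.53, SE 0.10, adjusted p = 0.00827). Both calls held in the offset fit, at -0.45 (adjusted p = 0.00046) and -0.44 (adjusted p = 0.00391), and without any 1 library. In deposited FPKM the groups overlapped for this first ACTN4 row, and its call was lost in limma (adjusted p = 0.186 and 0.18 with pseudocounts of 1 and 0.1). The second ACTN4 row, which holds more counts, also fell (-0.56, adjusted p = 0.0187), as did both rows summed (-0.55, adjusted p = 0.00483). The second row did not overlap in FPKM, at 177, 128 and 158 FPKM against 187, 218 and 207 FPKM. ZYX, zyxin, which gathers at strained actin fibres, stood at 220, 147 and 166 CPM against 212, 301 and 335 CPM, so that library 1 of the 2 groups lay side by side and the groups overlapped. Its log2 fold change of -0.67 (SE 0.19, adjusted p = 0.034) was not called in the offset fit (-0.42, adjusted p = 0.0947). The second, numbered ZYX row stood at 156, 141 and 147 CPM against 202, 209 and 160 CPM, without overlap. It was called lower too (log2 fold change -0.36, SE 0.11, adjusted p = 0.0456). With the counts of numbered copies of its symbol summed, ZYX gave -0.54 (SE 0.12, adjusted p = 0.0101).

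VCL, vinculin, which reinforces the talin link to actin under load, rose while the alpha-actinins fell. It stood at 139, 176 and 150 CPM against 122, 94.5 and 114 CPM (log2 fold change 0.49, SE 0.13, adjusted p = 0.022; offset fit 0.26, adjusted p = 0.0232). The groups were apart, and the adjusted p without 1 library reached 0.084. VCL overlaps AP3M1, which also rose (log2 fold change 1.12, adjusted p = 0.00512), and without the strand of counting the reads they share cannot be told apart. The windows before ZYX and ACTN1 are shown because ZYX had the largest fall among members with a RefSeq promoter and ACTN1 the smallest adjusted p, the latter added after its value was seen. ZYX covers chr7:143381095-143381344 on the plus strand and ACTN1 covers chr14:68979303-68979552 on the minus strand, written 5′ to 3′ with GC boxes in capitals.
ZYX: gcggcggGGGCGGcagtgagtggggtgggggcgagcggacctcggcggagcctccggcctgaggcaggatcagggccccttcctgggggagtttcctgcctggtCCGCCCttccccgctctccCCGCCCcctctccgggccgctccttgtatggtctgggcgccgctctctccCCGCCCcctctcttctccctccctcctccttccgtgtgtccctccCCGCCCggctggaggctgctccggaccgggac
ACTN1: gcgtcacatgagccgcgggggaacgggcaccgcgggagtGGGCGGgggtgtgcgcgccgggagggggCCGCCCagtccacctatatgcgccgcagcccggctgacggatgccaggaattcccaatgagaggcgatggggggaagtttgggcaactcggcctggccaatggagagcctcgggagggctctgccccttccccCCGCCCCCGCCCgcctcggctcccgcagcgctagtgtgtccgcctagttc
The ZYX window holds 5 GC boxes and the ACTN1 window 4. All 5 of the members that fell and have a RefSeq promoter hold at least 1 GC box, against 5 of the 10 that rose, 16 of 28 members overall and 42.3% of all promoters. The GC content of the windows ran from 70% (ITGA5) to 74.8% (ZYX) in those that fell. In those that rose it ran from 50.8% (ITGA6) to 78.4% (ITGB1), and its part in the GC box counts was not tested. The AP-1 motif TGANTCA was in 2 of 28 (BCAR1 and ACTN4) against 6.60% of all promoters. The TEAD motif GGAATG was in 4 of 28 (ITGA5, ITGA10, ITGB1 and VCL) against 11.9%. The SRF CArG box was in 1 of 28 (ITGB6) against 1.14%. All motifs were searched on both strands, and none of the 5 windows shown holds any of these last 3 motifs.

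**Figure D3:**
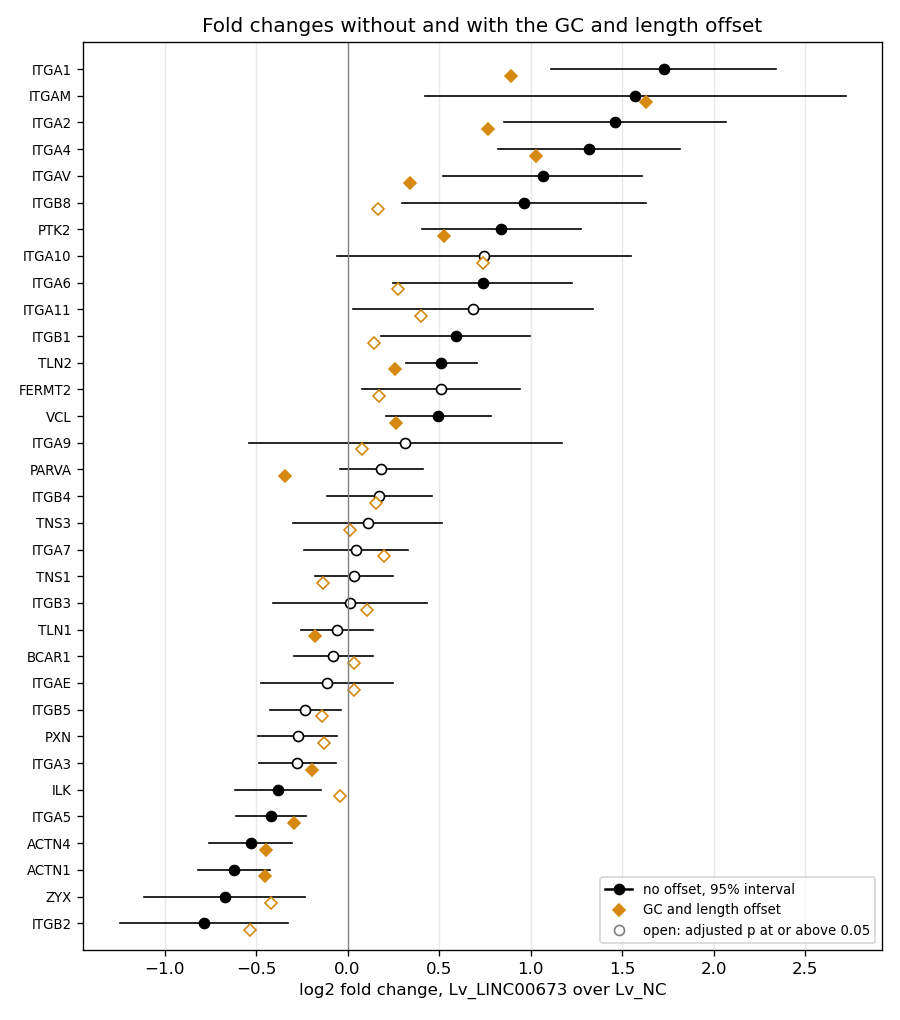
Log2 fold change of Lv_LINC00673 over Lv_NC for each tested gene without the GC and length offset (circles, bars for the 95% interval) and with it (diamonds); open symbols did not pass an adjusted p of 0.05. ITGA1 stays high in both (1.73 and 0.89), and ITGB8 moves from 0.96 to 0.17.

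The members that rose and those that fell differed in base composition and length. The longest transcripts of the 11 that rose had a median GC content of 42.9% (37.8 to 54.2%) and a median length of 6489 bases. Those of the 6 that fell had 58.6% (55.6 to 64.9%) and 3478.5 bases, and the median GC over all genes tested was 49.7%. Across the 33 members, which share the 6 libraries, the Spearman correlation between log2 fold change and GC content was -0.79, and it was -0.62 with offset fold changes. Across all 11226 genes used for the trend it was -0.52. In 7 of the 11 that rose (ITGA2, ITGA6, ITGAV, ITGB1, ITGB8, VCL and PTK2), the libraries of both groups fell in the same order as in the GC measure given above. Of all genes called higher, 43.3% did so. None of the 6 that fell had the opposite order in both groups, as 21.7% of all genes called lower did. For ITGA1, ITGA2, ITGA4, ITGA5, ITGAV, ITGAM, TLN2, VCL, PTK2, ACTN1 and ACTN4 the call was the same with the offset as without it.

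**Figure D4:**
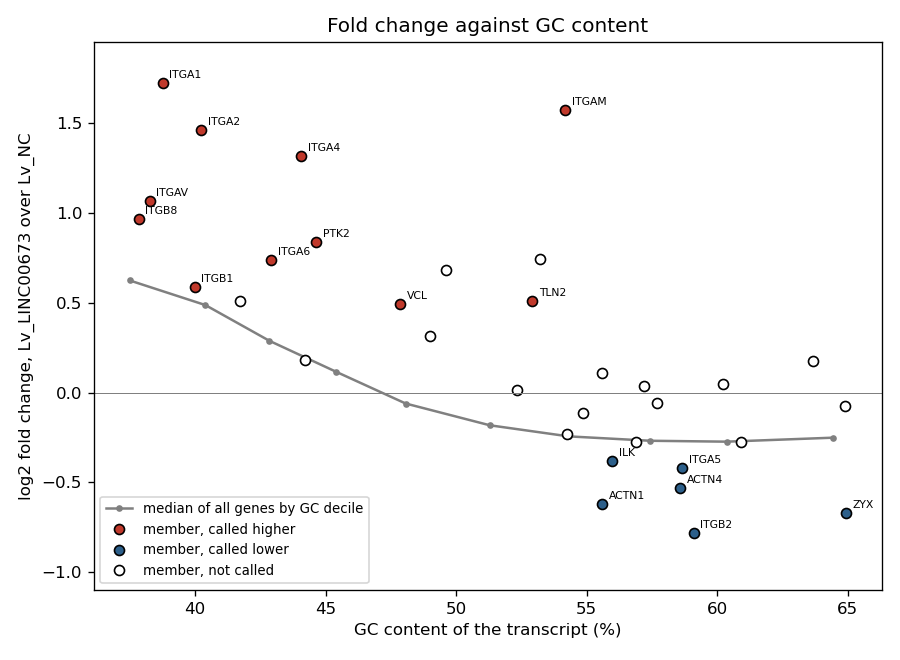
Log2 fold change without the offset against transcript GC content for each tested integrin and focal adhesion gene, with the median of all genes in each GC decile as a line. The line runs from 0.62 at the lowest GC decile to -0.25 at the highest, and most members that rose lie above it at low GC.

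A wider list of 94 adhesion genes outside the 36 gave 32 calls among 89 tested (36%), 19 higher and 13 lower, against 26.8% of all genes and 36.4% of those at 1 CPM or more in 3 libraries. The offset fit called 47 of them, 22 higher and 25 lower, against 31.8% of all genes. In adhesion signalling 11 of 24 were higher and 1 lower, beside 14.3% and 12.5% of all genes (20.5% and 15.9% at 1 CPM). In the offset fit 11 were higher and 4 lower, beside 16.3% and 15.5% of all genes. The pseudokinase PEAK1 (1.38, adjusted p = 0.00941) and the RAS exchange factor SOS1 (1.29, adjusted p = 0.00973) rose on the log2 scale, and they had 0.77 and 0.53 in the offset fit. Among actin and LIM proteins 3 of 20 were higher and 6 lower, and 4 were higher and 7 lower in the offset fit. CSRP1 and FHL2, LIM-domain proteins of actin fibres, fell (-0.88, adjusted p = 0.00243, and -0.61, adjusted p = 0.0044), and SVIL, supervillin, rose (0.98, adjusted p = 0.0054). Of the integrin regulators and the parvin complex 1 of 17 was higher, KANK2 (0.45, adjusted p = 0.0155), and 3 were lower, RSU1 (-0.58, adjusted p = 0.0283), PARVB (-0.37, adjusted p = 0.0269) and ITGB1BP1 (-0.28, adjusted p = 0.0464). With the offset 2 genes of this list were higher and 8 lower.

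Among the integrin ligands tested, 3 of 19 were higher and 3 lower. The shares of all genes were 14.3% and 12.5% (20.5% and 15.9% at 1 CPM). With the offset 3 ligand genes were higher and 4 lower. FN1, fibronectin, bound by ITGA5, ITGA4 and ITGAV receptors, averaged 920 ± 175 CPM in Lv_LINC00673 against 321 ± 57.1 in Lv_NC (SD, n = 3). It rose by 1.52 on the log2 scale (adjusted p = 0.00256) and by 1.28 in the offset fit. Of these receptor subunits ITGA4 and ITGAV also rose (1.32 and 1.06), and ITGA5 fell (-0.42). The laminin chain LAMB1 rose (0.89, adjusted p = 0.00998), and LAMB3 and the basement membrane collagen COL4A1 fell (-0.59, adjusted p = 0.00575, and -0.49, adjusted p = 0.00646). Of 5 hemidesmosome genes DST was called without the offset (1.55, adjusted p = 0.00386; 0.66 in the offset fit), and the offset fit also called PLEC, plectin, lower (-0.47, adjusted p = 0.00109). Tested outside the 36 were also the integrin genes ITGA2B, ITGAD and ITGAX, and ITGBL1, a beta-like gene that encodes no integrin subunit. Of these 4, edgeR, DESeq2 and limma-voom called 0, with 1, 2 and 1 at an unadjusted p under 0.05. The offset fit, which called 31.8% of all genes, called 2, ITGAX higher (0.63, adjusted p = 0.0328) and ITGBL1 lower (-0.83, adjusted p = 0.00155).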

How the data were processed

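Gene counts and FPKM values were deposited by the authors for the 6 libraries, made from total RNA (TruSeq RNA kit, according to the labels), with hg38 named in the submitters' processing notes. Not given in the sources used here: aligner, counter, annotation, strand. Counts were used as deposited: genes kept by edgeR's filterByExpr were TMM-scaled and tested with edgeR 4.0.16 (quasi-likelihood, robust; Benjamini-Hochberg adjustment over all 21933 genes) under R 4.3.3. The offset fit removed, per library, natural splines (5 degrees of freedom) of GC content and length of each gene's longest GENCODE transcript. Deposited FPKM served for levels and subunit ratios, and in limma 3.58.1 on log2(FPKM + 1) and log2(FPKM + 0.1) as alternatives. DESeq2 1.42.0 and limma-voom were alternatives run on the filtered counts. CPM were TMM-scaled. Of the 50550 rows, 6056 carried no gene symbol and were kept. All tested members are named, with fullest values for those past the threshold and the 10 with the highest FPKM; other lists give up to 4 genes with the largest called change, and some of these are not reported here. The members and lists were chosen with earlier results of these data known. Replicates of a group differed by more than sampling noise.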

Additional observations from a re-analysis of the deposited data

How the results depend on the processing

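Of 33 members, 17 were called, and RLE or upper-quartile factors, DESeq2, limma-voom, edgeR without robust settings, copies summed and the other count filters gave 15 to 20. Calls gained were ITGA3, PXN and FERMT2 with DESeq2, ITGA3 and PXN with limma-voom, and ITGA3 with RLE factors. Leaving out 1 library gave 7 to 20 members, 2716 to 6490 genes and 20 to 40 other adhesion genes; 7 members (ITGA1, ITGA2, ITGA4, ITGA5, TLN2, ACTN1, ACTN4) were called in all 6 such fits. The labels state no pairing by library number. Correlations of same-number deviations were -0.42, -0.36 and 0.04, and with 3 libraries a group they cannot settle whether samples were handled in pairs. The replicate block gave 1208 genes, 5 members (ITGA1, ITGA2, ITGA4, ACTN1, ACTN4) and 9 other adhesion genes. The offset with the block gave 3893 genes and 11 members. limma on log2(FPKM + 1) and log2(FPKM + 0.1) gave 11 members each, and the cause was not tested. Signs turned for genes that were not called, except PARVA: with the offset -0.343, and -0.346 with the block too (adjusted p = 0.0367). Without 1 library the log2 fold change ran from -0.0226 to 0.144 for ITGA7, from -0.128 to 0.089 for ITGB3, from -0.119 to 0.0014 for TLN1, from -0.0237 to 0.083 for TNS1 and from -0.0418 to 0.295 for TNS3. Library totals gave 0.0534 for ITGAE, 0.107 for TLN1 and 0.0876 for BCAR1. The offset gave 0.0348 for ITGAE, -0.134 for TNS1 and 0.0329 for BCAR1, and with the block too 0.0418, -0.135 and 0.03, and -0.0195 for TNS3. FPKM with pseudocounts of 1 and 0.1 gave 0.0289 and 0.0444 for ITGAE, 0.104 and 0.105 for TLN1, 0.0162 and 0.0163 for PXN, and 0.0794 and 0.0823 for BCAR1. ITGB3 gave -0.0147 with RLE factors, -0.0149 with DESeq2 and -0.0014 unfiltered. The 3 libraries a group limit precision, and genes under 1 CPM rest on few counts.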
